A study of Mus musculus with 143 samples.

Results

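C86187 (ENSMUSG00000110001), also named Sirena1, is a mouse long noncoding RNA (lncRNA) gene. It was chosen from its level as the lncRNA with the most counts in the RiboMinus libraries of the study, and it is 1 of 55487 gene IDs, 4724 of them lncRNAs, counted there. The poly(A) libraries list 55573 gene IDs, of which 4785 are lncRNAs, and C86187 had counts in all 71 poly(A) and all 48 RiboMinus libraries. Its values are described here by assay, stage and genotype, per gene count and per count of spiked-in ERCC RNA.

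Long noncoding RNAs are transcripts that are not translated into a protein of their own. In growing mouse oocytes many are made from promoters of retrotransposons, and Sirena1 is known as a very abundant maternal lncRNA that also gives rise to endogenous small interfering RNAs. The nuclear RNA exosome degrades and trims RNAs from their ends; DIS3 and EXOSC10 are its catalytic subunits, and loss of either can leave noncoding transcripts in the nucleus.

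The study profiled single mouse oocytes with and without these exosome subunits. Poly(A) RNA was captured with oligo(dT) beads from oocytes with a germinal vesicle (GV, 8 control and 15 Dis3 cKO libraries), from GV oocytes cultured for 3 hours (GV3h, 8 and 16) and from ovulated MII eggs of superovulated mice (8 and 16). RiboMinus libraries, made from total RNA with random primers, cover adult GV control, adult GV Dis3 cKO and, at the stage labelled p20, control, Dis3 cKO, Exosc10 cKO (labelled exo10cKO) and dcKO oocytes, with 8 libraries a group. CUT&Tag peak lists came from bulk oocytes, with 3 libraries a group. The labels say that the mutant mice were made by CRISPR/Cas9; they name no Cre driver, no strain and no exact adult age, do not spell out dcKO, and do not describe the controls further. They do not say which oocytes came from the same mouse, so p-values measure the spread between libraries. The titles of RiboMinus libraries carry tags (AM1758 and AM1759 for adult controls, AM1713 and AM1757 for adult Dis3 cKO, 1 and 2 in each p20 group), 4 libraries a tag, which the labels do not explain.

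Libraries held 4843964 to 15412200 gene counts (poly(A)) or 8492102 to 35429028 (RiboMinus). Mean Dis3 levels fell from 8.16 to 14.9 counts per 1000000 gene counts (CPM) in the control groups to between 0.68 and 3.15 CPM in the Dis3 cKO and dcKO groups, and Exosc10 averaged 113 CPM in p20 controls, 3.11 CPM in Exosc10 cKO and 7.84 CPM in dcKO. All 16 listed oocyte markers were above 0 in every RNA group. The 12 granulosa and cumulus markers had group medians of 65.1 to 169 CPM when summed, with Ptx3 at 0 in 11 of 12 groups; the 6 theca and stroma markers summed to at most 18.7 CPM and the 3 blood markers to at most 1.22 CPM in any library. Of 10 granulosa and cumulus markers tested by edgeR, 6 were lower and 1 higher in MII Dis3 cKO eggs, where 14.8% of all genes were lower and 27.3% higher. In p20 dcKO 2 of 9 were lower and 1 higher (27.1% and 26.6% of all genes), and at GV 2 of 10 were lower and 0 higher (8.33% and 13.6%). At GV3h 1 was lower and 1 higher (15.7% and 22.9%), in adult RiboMinus libraries 0 and 1 of 10 (12.4% and 15.7%), and in p20 Dis3 cKO and Exosc10 cKO 0 of 9 were called (7.37% and 7.45%). The oocyte markers also moved with the knockouts in edgeR: of the 16, 9 were lower and 3 higher in adult RiboMinus Dis3 cKO, 6 lower and 0 higher in p20 Exosc10 cKO (3.50% and 3.95% of all genes) and 6 lower and 6 higher in p20 dcKO. In MII Dis3 cKO 1 was lower and 8 higher, and at GV, GV3h and in p20 Dis3 cKO 3, 3 and 1 were lower and 0, 1 and 2 higher. The part of both lists in the results was not tested. Within the MII Dis3 cKO group, library 15 held 14.4 gene counts per ERCC count against a group median of 53.3.

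RefSeq places C86187 on the minus strand of chromosome 7 in GRCm38.p6 (chr7:46967710-46975911, 8202 bases, NR_015609.2). Its promoter window, from 250 bases before to 50 bases after the annotated start (chr7:46975862-46976161, minus strand, RefSeq), is printed because no peak of the CUT&Tag lists lay near it, as described further on. Capitals mark TATAAA, which starts 25 bases before the transcript.

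C86187 promoter: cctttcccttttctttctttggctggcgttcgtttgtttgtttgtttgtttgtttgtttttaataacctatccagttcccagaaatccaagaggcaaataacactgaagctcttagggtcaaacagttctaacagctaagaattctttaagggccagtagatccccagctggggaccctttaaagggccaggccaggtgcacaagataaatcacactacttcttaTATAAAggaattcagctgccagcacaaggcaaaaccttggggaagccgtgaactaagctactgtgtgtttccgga

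TATAAA on either strand was found in 13.6% of the 32851 promoter windows of the same length, and between 40 and 15 bases before the start in 1.99%. CANNTG, searched on either strand, matched at 85, 57 and 13 bases before the start, and 72.3% of promoters held it. TAATTG was not in the window and was found in 8.00% of promoters. A match is a description of letters and not of a bound site.

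The locus holds other annotated genes. Gm31941, a transcribed pseudogene (46973728 to 46975752), lies wholly inside C86187, and the lncRNA Gm39012 shares 2592 bases with it but has no row in the count files. The sources used here do not state whether counting used strand or how reads over both genes were treated. Reads of C86187 and Gm31941 may have been divided between them or left uncounted. Gm31941 averaged 83.4 CPM in poly(A) and 33.3 CPM in RiboMinus libraries. The nearest genes were Gm19248, Uevld and Tsg101 below the end of C86187, at distances of 93, 9178 and 41390 bases, and Gm9999, Spty2d1 and Gm32031 above its start, at 721, 14485 and 32643 bases. Tsg101 encodes a subunit of the membrane-sorting ESCRT machinery.

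C86187 was the first lncRNA by count in 44 of 48 RiboMinus libraries, which is what the choice of the gene rests on. Over the 16 RiboMinus control libraries it averaged 1945 ± 223 CPM (SD), and the next lncRNA, Gm1965, which fell just outside the choice, averaged 1173 ± 139 CPM. The 4 libraries led by Gm1965 were the 4 adult Dis3 cKO libraries with the tag AM1713. Ranks by count are not per length: the RefSeq spans are 8202 bases for C86187 and 6377 for Gm1965, and spliced lengths were not analysed here. Among all genes its rank ran from 11 to 152 in RiboMinus libraries, with a median of 25. It took 16.8% ± 1.14 of all lncRNA counts in adult controls and 15.2% ± 0.765 in p20 controls (SD, n = 8 each).

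In poly(A) libraries AY036118, a ribosomal RNA-like locus counted here among the lncRNAs, led them in all 71 (mean 7720.5 CPM). It is included in the ranks given here. The mean of C86187 over the 71 libraries was 652 CPM, beside 577 CPM for Gm1965. Its rank among lncRNAs depended on genotype: it was 2 or 3 in the control libraries at all 3 stages, and in Dis3 cKO 2 to 10 at GV (median 5), 4 to 9 at GV3h (median 6.5) and 2 to 15 at MII (median 3). Over all 71 libraries it was 2 to 15, and its rank among all genes was 53 to 1057 with a median of 235. In adult GV controls C86187 averaged 821 CPM in poly(A) libraries and 2086 CPM in RiboMinus libraries, a ratio of 2.54. The same ratio lay between 0.634 (E330011O21Rik) and 2.85 (Gm1965) for the 9 other most abundant lncRNAs. Assay and preparation cannot be told apart, and no test was made of this difference.

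**Figure D1:**
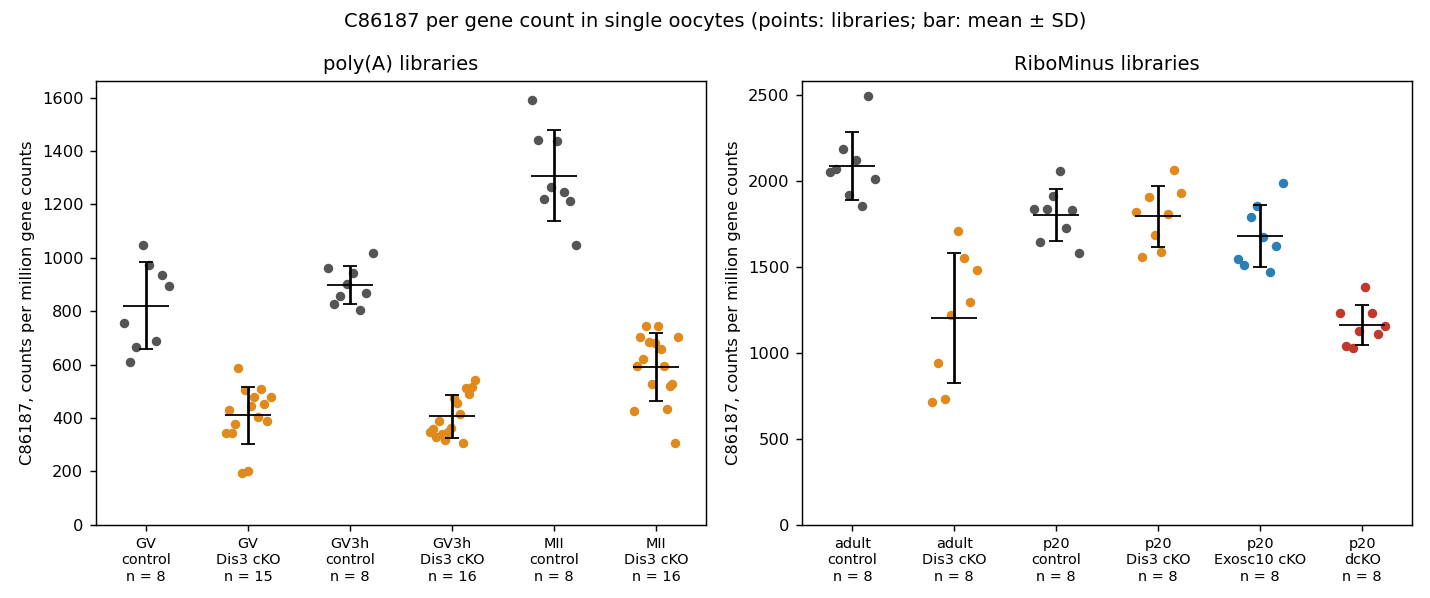
C86187 in CPM, counts per 1000000 gene counts (vertical axis) in each library, by assay, stage and genotype; points are libraries and bars give the mean and SD. Dis3 cKO groups lie below their controls in both assays except at p20, where control (1803 CPM) and Dis3 cKO (1793 CPM) share a range and dcKO (1163 CPM) lies lower.

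As a share of gene counts, C86187 was lower in Dis3 cKO at each of the 3 stages profiled with poly(A) capture. By edgeR it was at 0.476 (GV), 0.411 (GV3h) and 0.427 (MII) of control. In GV oocytes control libraries held 611, 823 and 1049 CPM (lowest, median, highest, n = 8) and Dis3 cKO libraries 195, 429 and 585 CPM (n = 15). After 3 hours of culture the values were 805, 886 and 1019 CPM in controls and 307, 377 and 543 CPM in Dis3 cKO (n = 16). In MII eggs they were 1046, 1256 and 1592 CPM in controls and 306, 607 and 745 CPM in Dis3 cKO (n = 16). The highest Dis3 cKO library lay below the lowest control library at every one of these stages.

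In a fit over all 17389 genes that passed a low-count filter (edgeR's quasi-likelihood test, Benjamini-Hochberg adjustment), the log2 fold change of C86187 in GV oocytes was -1.07 ± 0.14 (SE), a level of 0.476 of control (95% interval 0.392 to 0.577), with an adjusted p of 7.39e-09. Of all genes tested, 21.9% were called in that comparison. At GV3h edgeR gave -1.28 ± 0.14 (adjusted p = 8.47e-12), where 38.6% of genes were called, and in MII eggs -1.23 ± 0.14 (adjusted p = 2.21e-11), where 42.1% were called. Genes called lower made up 8.33%, 15.7% and 14.8% of those tested, in the same order. More negative fold changes than that of C86187 were found for 583, 682 and 858 genes, of which 44, 62 and 59 were lncRNAs. The effect of Dis3 loss was not shown to differ between stages: relative to GV, the interaction was -0.21 at GV3h (95% interval -0.61 to 0.19, adjusted p = 0.710, 2.04% of genes called by edgeR) and -0.16 at MII (-0.56 to 0.25, adjusted p = 0.672, 13.2% called). Both signs turn with another processing: scaled to ERCC counts, edgeR gave interactions of 0.02 and 0.48 (adjusted p = 0.982 and 0.211).

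The same volume of diluted ERCC RNA went into each lysate, so counts per ERCC count give a scale that does not rest on the other genes. Control GV oocytes held 0.0893 to 0.148 C86187 counts per ERCC count (median 0.109) and Dis3 cKO oocytes 0.0181 to 0.0996 (median 0.0446), so that the ranges overlapped. The overlap came from 1 library, Dis3 cKO 16, which also held 208 gene counts per ERCC count against a group median of 104; without it the ranges did not overlap and the difference was -1.51. With all libraries the mean log2 difference was -1.42 (adjusted p = 4.59e-05, 2-sided exact permutation test, adjusted over 15 comparisons), and all 15 Dis3 cKO libraries were below the control mean. At GV3h the difference was -1.35 (adjusted p = 4.08e-05, exact permutation test) and at MII -0.97 (adjusted p = 0.00185, exact permutation test), with 16 of 16 libraries below the control mean at both. The ranges per ERCC count also overlapped at GV3h and MII. Per ERCC count, fewer transcripts of the gene and less RNA recovered per oocyte cannot be told apart. Summed gene counts per ERCC count differed between genotypes by -0.38 on the log2 scale at GV (adjusted p = 0.0160, exact permutation test), -0.18 at GV3h (adjusted p = 0.212) and 0.20 at MII (adjusted p = 0.470). At MII 15 of 16 Dis3 cKO libraries lay above the control mean. The other was library 15, with 14.4 gene counts per ERCC count against a group median of 53.3.

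The level of C86187 across maturation depended on the scale. In controls it averaged 821 ± 162 CPM at GV, 898 ± 72.4 at GV3h and 1308 ± 172 at MII (SD, n = 8 each), while summed gene counts per ERCC count averaged 137, 161 and 46.0. As a share of gene counts it was higher in MII eggs than in GV oocytes, with an edgeR log2 fold change of 0.95 ± 0.17 (adjusted p = 9.17e-07), in a comparison in which 58.5% of genes were called. Of the 10 granulosa and cumulus markers tested there 7 were lower and 1 higher, and of the 16 oocyte markers 11 were lower and 4 higher. Over all genes 35.8% were lower and 22.7% higher, and the part of both lists in this result was not tested. Per ERCC count the poly(A) libraries of the same eggs held less: 0.0503 to 0.0832 at MII (median 0.0555) against 0.0893 to 0.148 at GV. Those ranges do not overlap, the log2 difference was -0.89 and the exact permutation p of 0.000155 is the smallest that 8 against 8 libraries can give (adjusted p = 0.000389). Scaled to ERCC counts, edgeR gave -0.88 for C86187 and a median of -2.12 over all genes tested, so the gene lay above the median on both scales. In that fit 87.5% of all genes were lower and 0.33% higher. MII eggs were profiled only with oligo(dT) capture, so fewer transcripts and less capture of them cannot be told apart.

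Between GV and GV3h the share of gene counts stayed within the spread of control libraries, and the level per ERCC count was higher. The edgeR log2 fold change from GV to GV3h was 0.13 ± 0.16 (95% interval -0.20 to 0.45, adjusted p = 0.773), where 2.71% of genes were called and 4 of 10 granulosa and cumulus markers were lower, and the log2 difference per ERCC count was 0.37 (adjusted p = 0.0201, exact permutation test) with 7 of 8 libraries above the GV mean. Taken between group medians that difference was 0.45 with an adjusted p of 0.0513 (exact permutation test). In Dis3 cKO oocytes edgeR gave -0.08 ± 0.12 for GV3h against GV (adjusted p = 0.672, 17.3% of genes called; 3 of the 10 markers and 9.88% of all genes were lower), and the value per ERCC count was 0.44 higher on the log2 scale (adjusted p = 0.0298, permutation test), beside 0.41 for summed gene counts per ERCC count. That call was lost without any 1 of 4 libraries (GV3h 15 or 16, GV 6 or 8), and the difference then was as low as 0.35 (adjusted p up to 0.0618). From GV to MII, Dis3 cKO libraries rose by 0.80 ± 0.12 (edgeR, adjusted p = 1.96e-08), where 63.3% of genes were called and 7 of the 10 granulosa and cumulus markers were lower and 1 higher (38.5% and 24.8% of all genes), and per ERCC count they differed by -0.44 (adjusted p = 0.101, permutation test). Without MII library 15 the latter was -0.26, and without GV library 6 or 8 it passed the threshold (as far as -0.53, adjusted p = 0.0352, permutation test). The ERCC-scaled edgeR fit called it lower (-0.40, adjusted p = 0.0321), where 82.3% of all genes were lower and 1.3% higher. Scaled by gene counts, 9 of the 16 oocyte markers were lower and 6 higher in Dis3 cKO MII eggs against GV. The stage comparisons within a genotype share its GV libraries, and in Dis3 cKO the edgeR value for GV3h also turned sign under ERCC scaling (0.39).

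**Figure D2:**
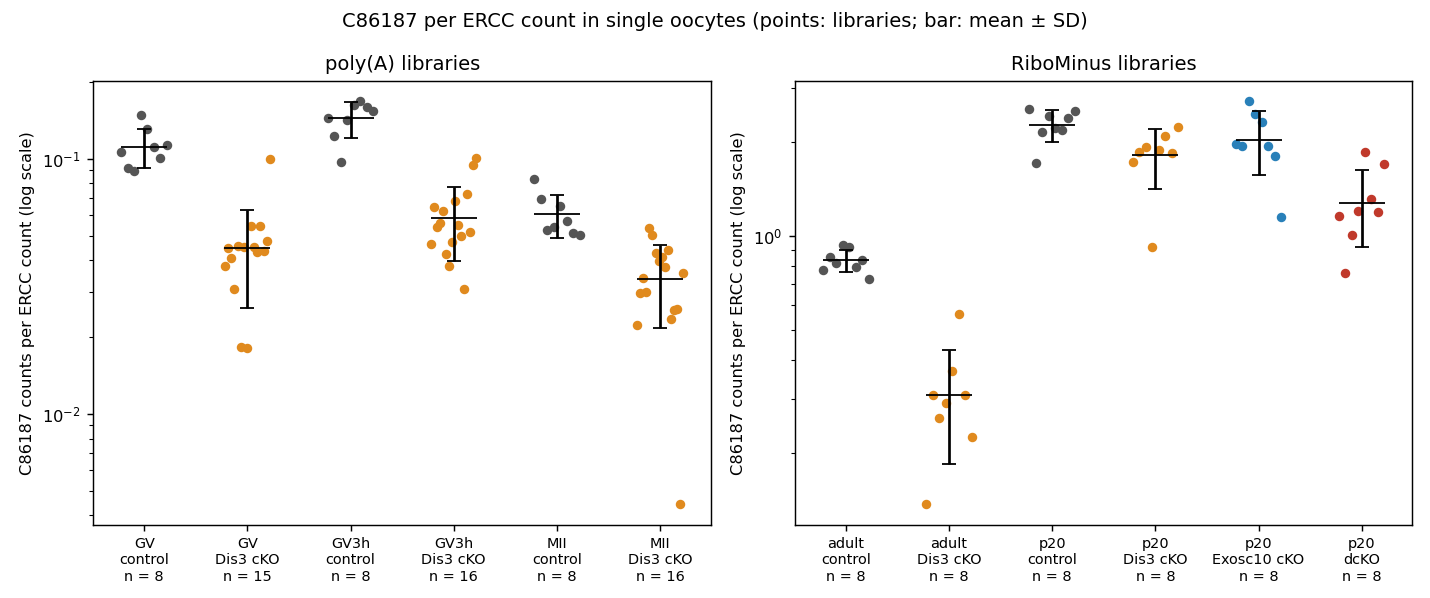
C86187 counts per ERCC count (vertical axis, log scale) in each library of the 12 RNA groups; points are libraries and bars give the group mean and SD. Control GV (mean 0.112) and MII (0.0605) poly(A) libraries do not overlap, and adult RiboMinus libraries lie below p20 libraries in both genotypes shown at both ages.

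In adult GV oocytes the RiboMinus libraries also held less C86187 without Dis3. Control libraries ran from 1851 through a median of 2058 to 2491 CPM, and Dis3 cKO libraries from 711 through 1257 to 1705 CPM (n = 8 each). No Dis3 cKO library reached the lowest control. The edgeR log2 fold change was -0.86 ± 0.17 (adjusted p = 0.00114), or 0.549 of control (95% interval 0.427 to 0.707), and 28.1% of genes were called. Its share of lncRNA counts was 16.8% in controls and 8.55% in Dis3 cKO.

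The adult Dis3 cKO libraries differed by title tag. The 4 libraries with the tag AM1713 averaged 899 ± 236 CPM (SD), the 4 with AM1757 averaged 1509 ± 170 CPM, and the control tags 2054 ± 110 (AM1758) and 2118 ± 272 CPM (AM1759). Against the 2 control tags the log2 difference per gene count was -1.23 and -1.26 for AM1713 and -0.45 and -0.49 for AM1757. With counts summed per tag, so that each group has 2 values, edgeR gave -0.88 with an adjusted p of 0.213, and 0 of the genes tested were called while 3577 had an unadjusted p under 0.05. No tag holds both genotypes, so tag and genotype cannot be told apart.

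Per ERCC count the adult groups lay further apart. Controls held 0.729 to 0.933 C86187 counts per ERCC count (median 0.829) and Dis3 cKO libraries 0.137 to 0.560 (median 0.299), with no overlap. The exact permutation test, which regroups libraries and not title tags, gave its smallest possible p (0.000155, adjusted p = 0.000389), and the log2 difference was -1.54. Against each control tag it was -1.83 and -1.78 for AM1713 and -1.29 and -1.24 for AM1757. Gene counts per ERCC count were lower in Dis3 cKO as well (log2 difference -0.68, adjusted p = 0.00280, exact permutation test), and the median over all genes in the ERCC-scaled edgeR fit was -0.52, against -1.44 for C86187.

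At p20 the single knockouts left the share of C86187 within a narrow interval of the control, and the dcKO oocytes had less. Control libraries held 1582, 1833 and 2058 CPM (lowest, median, highest), Dis3 cKO 1555, 1813 and 2061 CPM, and Exosc10 cKO 1469, 1647 and 1984 CPM. The dcKO libraries held 1027, 1141 and 1379 CPM (n = 8 in each group). The 3 first groups overlapped over most of their range, and no dcKO library reached the lowest library of any of them.

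By edgeR the log2 fold change against p20 controls was -0.02 ± 0.09 for Dis3 cKO (95% interval -0.20 to 0.16, adjusted p = 0.939), where 7.37% of genes were called, and -0.14 ± 0.09 for Exosc10 cKO (-0.32 to 0.03, adjusted p = 0.364), where 7.45% were called. For dcKO it was -0.80 ± 0.09 (adjusted p = 6.13e-09), or 0.576 of control, in a comparison in which 53.7% of genes were called. These 3 comparisons share the same 8 control libraries. Set against the single knockouts, dcKO was lower than Dis3 cKO by a log2 fold change of -0.78 ± 0.09 (edgeR, adjusted p = 1.19e-08, 51.5% of genes called) and lower than Exosc10 cKO by -0.65 ± 0.09 (adjusted p = 3.46e-07, 49.2% called). With counts summed per tag the dcKO comparisons kept their calls in edgeR, with adjusted p of 0.000917 against control, 0.00152 against Dis3 cKO and 0.00354 against Exosc10 cKO.

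Per ERCC count p20 controls held 1.71 to 2.56 C86187 counts (median 2.31), Dis3 cKO 0.922 to 2.24 (median 1.88), Exosc10 cKO 1.16 to 2.71 (median 1.97) and dcKO 0.759 to 1.86 (median 1.20). All of these ranges overlap. Against control the log2 difference was -0.36 for Dis3 cKO (adjusted p = 0.0163, exact permutation test), with 8 of 8 libraries below the control mean, -0.18 for Exosc10 cKO (adjusted p = 0.247, 5 of 8 below, exact permutation test), and -0.87 for dcKO (adjusted p = 0.000666, 8 of 8 below, exact permutation test). By tag the Dis3 cKO difference was -0.50 for tag 1 and -0.21 for tag 2, and the dcKO difference was -1.11 and -0.64. Without library 1_4 the Dis3 cKO difference was -0.22 (adjusted p = 0.0295, exact permutation test). For Exosc10 cKO it was -0.072 without library 2_4, and the tags differed in sign, at 0.041 for tag 1 and -0.41 for tag 2. In Dis3 cKO the summed gene counts per ERCC count differed by about as much (-0.35, adjusted p = 0.0370, exact permutation test), with library 1_4 at 547 against a group median of 1087. The difference for C86187 no longer passed when the most abundant ERCC RNA was left out of the ERCC sum (-0.29, adjusted p = 0.0611, exact permutation test). The dcKO libraries were also below Dis3 cKO (-0.52, adjusted p = 0.0295, exact permutation test) and Exosc10 cKO (-0.69, adjusted p = 0.00699, exact permutation test). The first of these calls was lost without dcKO library 1_2 or 1_3 or Dis3 cKO library 2_4 (as low as -0.42, adjusted p up to 0.0547, exact permutation test). The difference between dcKO and Exosc10 cKO was -1.15 between the libraries with tag 1 and -0.23 between those with tag 2.

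**Figure D3:**
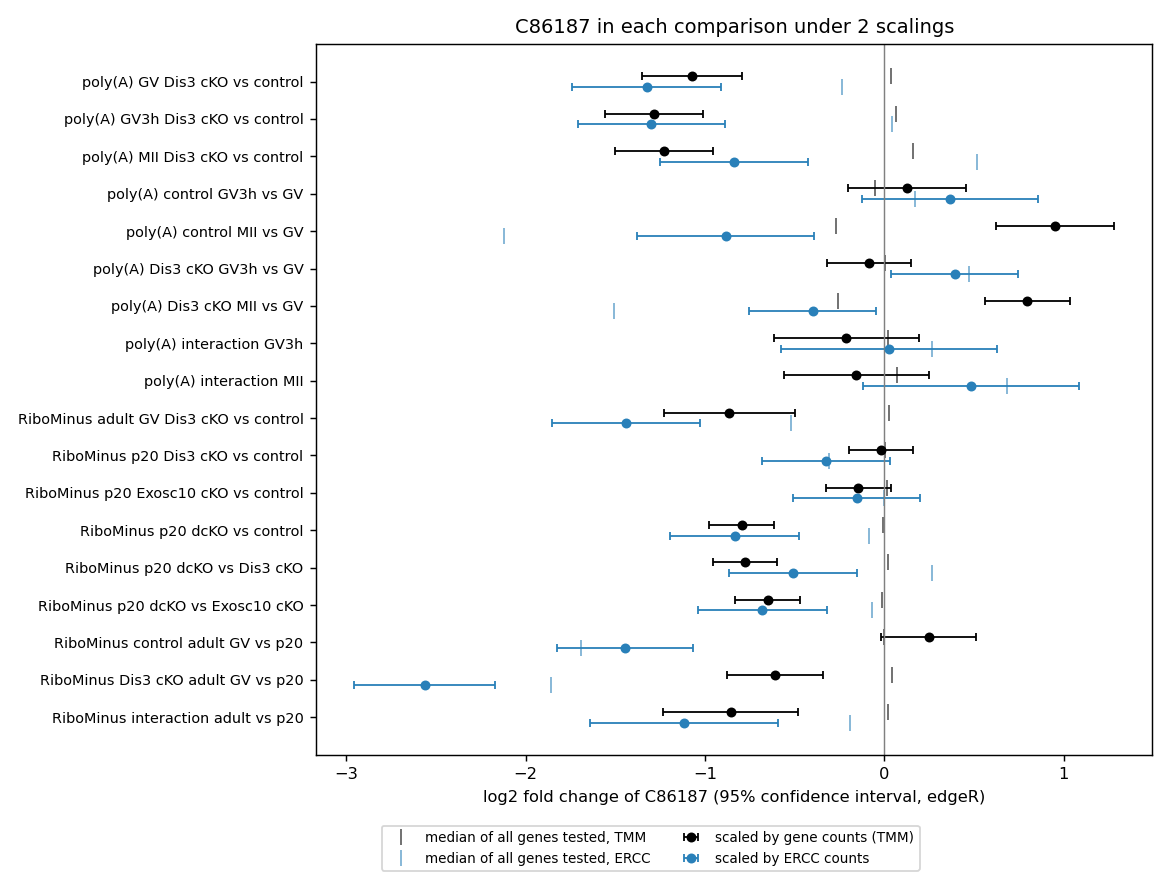
Log2 fold change of C86187 in each of the 18 edgeR comparisons (horizontal axis, points with 95% confidence intervals), scaled by gene counts (black) or by ERCC counts (blue), with the median of all genes tested as a vertical tick. The knockout comparisons at GV, GV3h, MII and adult GV and the dcKO comparisons lie below 0 on both scales, and control MII against GV changes side, from 0.95 to -0.88.

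Tested over libraries, the effect of Dis3 loss on the share of C86187 was larger in adult GV than in p20 oocytes. Tested over title tags, the difference was not called. The interaction in a fit over all 6 RiboMinus groups was -0.86 ± 0.19 (edgeR, adjusted p = 0.00158), where 9.32% of genes were called, and -1.12 under ERCC scaling. Summed per title tag it had an adjusted p of 0.309 in edgeR. Between ages, control libraries differed by 0.25 ± 0.13 (adult against p20, adjusted p = 0.196, 19.1% of genes called by edgeR). A fit of those 2 groups alone gave 0.23 with an adjusted p of 0.0229, and the exact permutation test of the share of gene counts gave 0.21 (adjusted p = 0.00487, 8 of 8 adult libraries above the p20 mean). In Dis3 cKO the adult libraries were lower by a log2 fold change of -0.61 ± 0.13 (edgeR, adjusted p = 0.000275, 37.5% called), and with counts summed per tag the adjusted p was 0.0844. Per gene count the libraries of tag AM1713 differed from the 2 p20 Dis3 cKO tags by -0.98 and -1.07, and those of AM1757 by -0.21 and -0.29.

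Per ERCC count the adult level was lower in both genotypes. Control means were 2.27 ± 0.274 at p20 and 0.835 ± 0.0694 in adults (SD, n = 8), a log2 difference of -1.44, and the Dis3 cKO means were 1.82 ± 0.395 and 0.307 ± 0.123, a difference of -2.62. Neither pair overlapped, and both tests gave the smallest p possible (adjusted p = 0.000389, exact permutation test). Both tests regroup libraries and not title tags. Gene counts per ERCC count differed in the same direction, by -1.65 in controls and -1.99 in Dis3 cKO, and age cannot be told apart from the preparation of the libraries.

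Ordered by mean share of gene counts, the RiboMinus groups ran from adult control (2086 CPM) through p20 control (1803), p20 Dis3 cKO (1793), p20 Exosc10 cKO (1681) and adult Dis3 cKO (1204) to p20 dcKO (1163). The p20 control, Dis3 cKO and Exosc10 cKO means followed each other by less than 1 SD, as did adult Dis3 cKO and p20 dcKO. The poly(A) groups ran from MII control (1308 CPM) through GV3h control (898), GV control (821), MII Dis3 cKO (591) and GV Dis3 cKO (409) to GV3h Dis3 cKO (406). Of these neighbours, GV3h and GV control, and GV and GV3h Dis3 cKO, were less than 1 SD apart. Per ERCC count the order was p20 control (2.27), Exosc10 cKO (2.04), Dis3 cKO (1.82), dcKO (1.28), adult control (0.835) and adult Dis3 cKO (0.307), and in poly(A) libraries GV3h control (0.144), GV control (0.112), MII control (0.0605), GV3h Dis3 cKO (0.0584), GV Dis3 cKO (0.0446) and MII Dis3 cKO (0.0338). In this order the p20 control, Exosc10 cKO and Dis3 cKO means followed each other by less than 1 SD. So did the poly(A) means from MII control to MII Dis3 cKO.

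Scaled by gene counts, more lncRNAs were called higher than lower in Dis3 cKO at GV, GV3h and MII and in adult RiboMinus libraries, while most were not called. Of 1394 other lncRNAs tested in poly(A) libraries, edgeR called 396 higher and 52 lower at GV, 537 and 128 at GV3h, and 583 and 94 at MII in Dis3 cKO, with median log2 fold changes of 0.44, 0.56 and 0.70. Over all genes the counts were 2358 higher and 1448 lower at GV, 3989 and 2729 at GV3h and 4743 and 2572 at MII, with medians of 0.04, 0.07 and 0.16; genes called higher made up 13.6%, 22.9% and 27.3% of those tested. In adult RiboMinus libraries 324 of 982 lncRNAs were higher and 41 lower (median 0.43), beside 2405 (15.7%) and 1900 (12.4%) of all genes. Scaled to ERCC counts, 290 lncRNAs were higher and 92 lower at GV, 477 and 106 at GV3h, 695 and 39 at MII, and 186 and 168 in adult RiboMinus libraries (median -0.11 in adults); all genes then split into 1265 higher and 2317 lower at GV, 3046 and 1850 at GV3h, 6535 and 749 at MII, and 699 and 6144 in adults. In p20 Dis3 cKO 43 of 1011 were higher and 22 lower (median 0.06), beside 574 (3.61%) and 597 (3.76%) of all genes. Under ERCC scaling the p20 Dis3 cKO counts were 10 and 33 (median -0.24), beside 124 and 844 of all genes. In p20 Exosc10 cKO 86 of 1011 were higher and 14 lower by edgeR (median 0.24), beside 627 (3.95%) and 556 (3.50%) of all genes, and under ERCC scaling 34 and 7 were, beside 214 and 150 of all genes. In p20 dcKO 288 of 1011 were higher and 191 lower, beside 4231 (26.6%) and 4300 (27.1%) of all genes, and 222 lncRNAs had a lower fold change than C86187.

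The 9 next most abundant lncRNAs give a closer comparison. In adult Dis3 cKO, edgeR called 2 of them higher, Arhgap20os (0.23 ± 0.06) and Gm10857 (0.52 ± 0.10), and 1 lower, AU015836 (-0.35 ± 0.06), where 15.7% of all genes were called higher and 12.4% lower. That share of the 9 is near the 28.1% called over all genes. Gm1965 had 0.20 ± 0.09 (adjusted p = 0.110) and 4933427D06Rik -0.23 ± 0.09 (adjusted p = 0.0558), against -0.86 for C86187. Under ERCC scaling 0 were called higher and 4 lower, a share near the 40.1% of all genes called lower in that fit (median -0.52), and the values of Arhgap20os (-0.32) and Gm1965 (-0.33) changed sign. In p20 dcKO 7 of the 9 fell, among them Gm1965 (-0.68 ± 0.09), 4933427D06Rik (-0.95 ± 0.12) and Gm839 (-1.14 ± 0.12), and 0 rose in edgeR, beside 27.1% of all genes called lower and 26.6% called higher. Gm10857 and 1700001L05Rik did not pass there (0.06 and 0.19). In p20 Dis3 cKO 1 of the 9 was lower and in p20 Exosc10 cKO 0 were called by edgeR, about what the shares of 7.37% and 7.45% over all genes give.

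**Figure D4:**
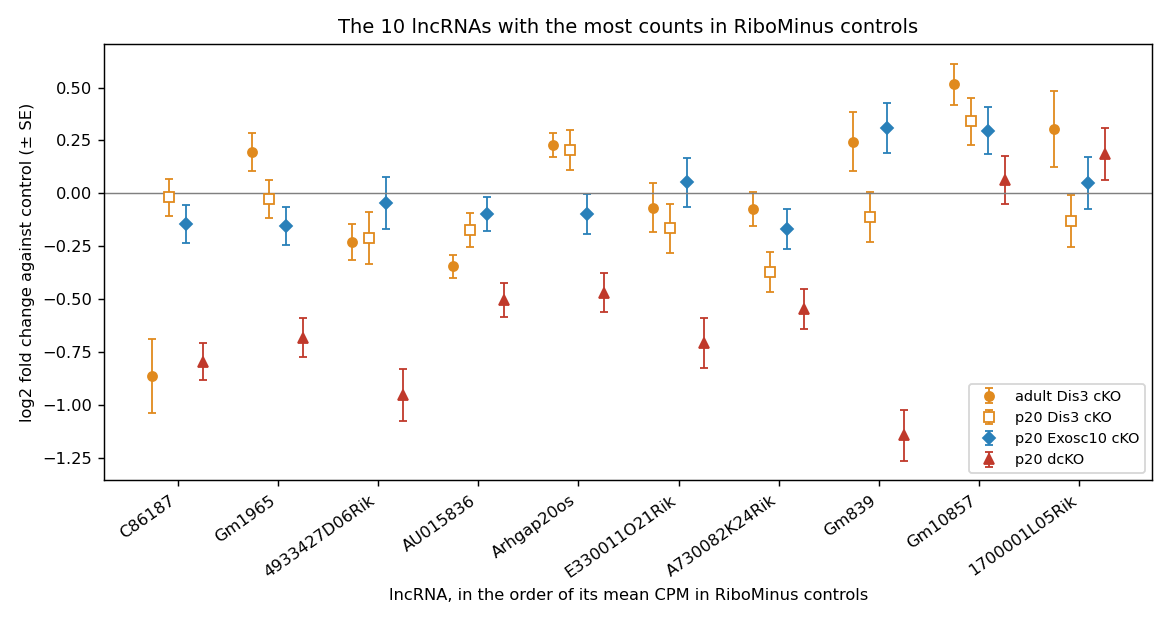
The edgeR log2 fold change against control (vertical axis, ± SE) of the 10 lncRNAs with the most counts in RiboMinus controls, in 4 knockout groups of 8 libraries each. C86187 is at -0.86 in adult Dis3 cKO, below the 9 others (-0.35 to 0.52), and at -0.80 in p20 dcKO, inside their range (-1.14 to 0.19).

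A list of 35 names of well-studied lncRNAs (2 of them names of 1 gene) gave the background beyond abundant oocyte transcripts. At GV 7 of the 20 that could be tested in poly(A) libraries rose in Dis3 cKO and 1 fell; at GV3h the numbers were 10 and 1, and at MII 11 and 0. Over all genes 13.6%, 22.9% and 27.3% were called higher and 8.33%, 15.7% and 14.8% lower at these stages. Of all 1394 lncRNAs tested other than C86187, 396, 537 and 583 were higher and 52, 128 and 94 lower. In adult RiboMinus libraries 3 of 17 rose, Dleu2 (3.31 ± 0.62), the imprinted snoRNA host Snhg14 (1.05 ± 0.30) and Tug1 (0.84 ± 0.09), and 1 fell, D6Ertd527e (-0.25 ± 0.09); these counts are close to the 15.7% higher and 12.4% lower over all genes. Of all 982 lncRNAs tested there other than C86187, 324 were higher and 41 lower. Under ERCC scaling edgeR called 1 of the 17 higher and 2 lower there (4.56% and 40.1% of all genes), and 6 of 20 higher and 2 lower at GV in poly(A) libraries (7.28% and 13.3% of all genes). In p20 Dis3 cKO 1 of 20 rose and 0 fell, and in p20 Exosc10 cKO 2 rose and 0 fell by edgeR, beside 7.37% and 7.45% of all genes called. In p20 dcKO 9 of 20 rose, among them the snoRNA hosts Snhg8 (3.50 ± 0.76) and Snhg3 (2.76 ± 0.76) and Norad (2.35 ± 0.40), a lncRNA that binds Pumilio proteins. The imprinted Meg3 (-1.56 ± 0.64), Pvt1 (-0.87 ± 0.18) and D6Ertd527e (-0.56 ± 0.09) fell there, where 26.6% of all genes were higher and 27.1% lower. The RefSeq table types D6Ertd527e as protein coding.

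Gm31941, the pseudogene inside C86187, was lower in the same 5 comparisons of a knockout with its controls in which C86187 was called. Its edgeR log2 fold change in Dis3 cKO was -1.11 ± 0.15 at GV, -1.11 ± 0.15 at MII and -1.05 ± 0.14 in adult RiboMinus libraries, and in p20 dcKO it was -1.07 ± 0.15. In p20 Dis3 cKO, where C86187 did not pass the test, Gm31941 was lower by -0.51 ± 0.15 (edgeR, adjusted p = 0.0270). Of the other 5 neighbours that could be tested, Tsg101 was the only one called in adult RiboMinus libraries (-0.64 ± 0.10, 28.1% of all genes called) and in p20 Dis3 cKO (-0.43 ± 0.11, 7.37% called). Spty2d1 was the only one called in p20 dcKO (0.38 ± 0.09, 53.7% called), and under ERCC scaling it was not (0.27, edgeR adjusted p = 0.230), while in adults Spty2d1 was then called lower (-0.59, adjusted p = 0.0123). In poly(A) GV oocytes 0 of those 5 were called by edgeR, where 21.9% of all genes were called (Tsg101 -0.36 ± 0.14, adjusted p = 0.0580; -0.63 and 0.0477 under ERCC scaling). At GV3h 1 of the 5, Uevld, was higher (0.85 ± 0.23), where 22.9% of all genes were higher and 15.7% lower. In MII eggs 4 of them were higher in Dis3 cKO: Tsg101 (0.44 ± 0.15), Uevld (0.83 ± 0.24), Gm9999 (1.32 ± 0.43) and Gm32031 (0.50 ± 0.16), where 27.3% of all genes were higher.

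Across the 71 poly(A) libraries the gene most like C86187 in log2(CPM + 1), among 8902 genes with a mean of at least 10 CPM, was Gm31941 (Pearson r = 0.954, and 0.911 for deviations from the group means). Prrg1 (r = 0.872), Scml2 (0.856), Adtrp (0.849) and Ldlrad3 (0.848) followed; Scml2 encodes a Polycomb protein. Within groups their r was lower, at 0.499, 0.572, 0.463 and 0.631. Across the 48 RiboMinus libraries and 8299 genes the highest were Stat4 (0.90), a transcription factor of cytokine signalling, Gm19757 (0.893), Chn2 (0.887), the Golgi calcium pump Atp2c1 (0.885) and the piRNA pathway gene Tdrd1 (0.883). Their r within groups was 0.784, 0.785, 0.781, 0.741 and 0.692. None of these 5 was among the first 5 by Spearman's rho, and in poly(A) libraries 2 of 5 were. The libraries share groups, depth and preparation, so these values describe the libraries and carry no test.

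The CUT&Tag peak lists were read over C86187 and 2000 bases on each side, with any overlap counted. The libraries titled pols2s5, whose antibody the labels do not spell out, had 19 deposited peaks there in 8 of 9 libraries: 3 peaks in 3 of 3 adult GV control libraries, 7 in 2 of 3 p20 control libraries and 9 in 3 of 3 adult GV Dis3 cKO libraries. The midpoints of 16 peaks lay inside the gene, 13 of them nearer its end than its start, and 3 lay past the end. The lncRNA Gm39012 overlaps that end, and 14 of the 19 midpoints lay inside its span, 11 of them inside both genes, so the peaks cannot be assigned to C86187 alone. None lay within 1000 bases of the annotated start, where the TATAAA of the printed promoter is found, and the nearest midpoint was 2809.5 bases into the gene. Between 15.4% and 43.8% of genes had a peak by the same rule in these lists, which held 19697 to 122606 peaks each, so the number of peaks at C86187 is set beside lists of unequal length and no test was made. Of 12 k27me3 libraries, 1 had a peak at the gene, an adult GV Dis3 cKO library with a summed signal of 907 as the authors give it, while 31.4% to 57.9% of genes had 1 or more.

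**Figure D5:**
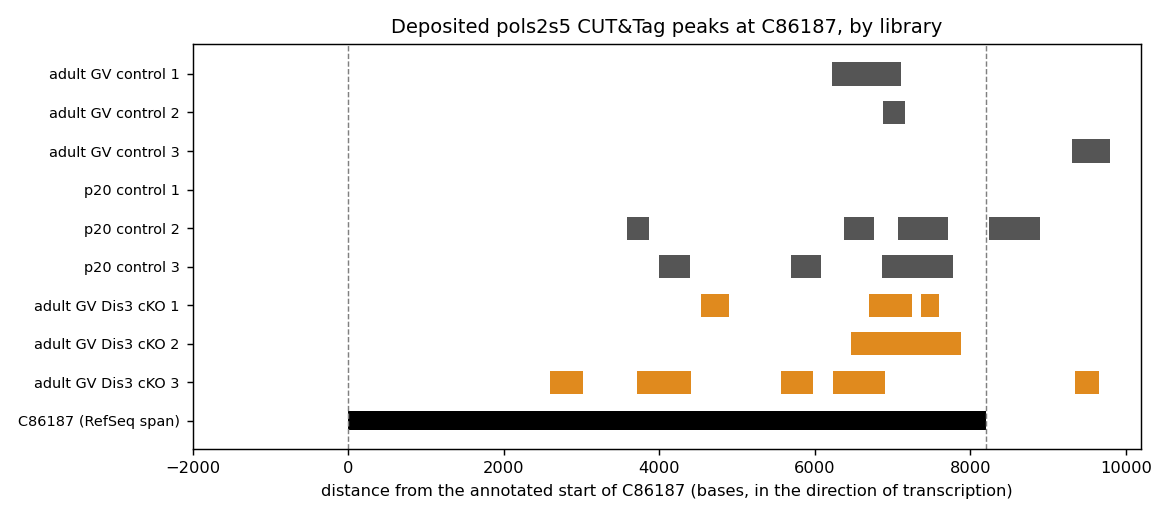
Deposited pols2s5 CUT&Tag peaks (bars) over C86187 in 9 libraries, by distance from the annotated start in bases along the direction of transcription. Most peaks lie toward the end of the 8202-base gene, where the span of Gm39012 overlaps it and 14 of the 19 midpoints fall inside that span, and none is near the start.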

How the data were processed

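The member gene and the lists were chosen with earlier results of these data known. The authors deposited whole-number read counts per gene and per ERCC RNA for 71 poly(A) and 48 RiboMinus single-oocyte libraries, and CUT&Tag peak lists with a summed signal per peak; per the submitters' processing notes the tools were cutadapt 2.5, STAR 2.7.2a, HTSeq 0.9.1 and SEACR, with mouse build mm10, and the series' design text says that CUT&Tag reads were sampled to an equal number. Here, counts of all genes were fitted with edgeR 4.0.16 in R 4.3.3 (TMM scaling, filterByExpr, quasi-likelihood F test, Benjamini-Hochberg adjustment, threshold 0.05), with the 6 poly(A) groups, the 2 adult RiboMinus groups, the 4 p20 groups and, between ages, all 6 RiboMinus groups in 1 fit each. Standard errors come from the F statistic, as the size of the log2 change over its root. C86187 per summed ERCC count and per summed gene count was compared on the log2 scale by 2-sided exact permutation tests, or 100000 random regroupings where both groups held 10 or more libraries, adjusted over 15 comparisons. The script was tested on simulated counts. Named genes are C86187, genes that overlap it or lie nearest (3 a side), the 5 most correlated per assay, the 10 lncRNAs with the most counts and called members of the listed lncRNAs with the largest changes. Gene positions and types come from RefSeq tables of GRCm38.p6; symbols were found for 99.7% and 99.4% of gene IDs (poly(A), RiboMinus). Alternatives covered scaling, filter, tool, samples in the fit, title tags, left-out libraries and peak windows. No pair of libraries within a group was alike within sampling noise (smallest chi-square per gene 2.85).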

Additional observations from a re-analysis of the deposited data

Results flagged for a closer look

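In the p20 Dis3 cKO group 1 library stood apart per ERCC count: the library numbered 1_4 held 0.922 C86187 counts per ERCC count, and its gap to the next library was 0.610 of the range of the group, above the critical value of 0.526 for 8 samples. Its gene counts per ERCC count were 547 against a group median of 1087, while its 1684 CPM lay inside the range of the group. Such gaps arise by chance in about 1 in 20 groups, and 18 sets were examined. Only groups of 8 libraries were examined, so the poly(A) Dis3 cKO groups of 15 or 16 libraries were not. GV Dis3 cKO library 16 (0.0996 C86187 counts per ERCC count, group median 0.0446) is among the libraries left out of this screen. Leaving out 1 library at a time kept the p20 Dis3 cKO difference per ERCC count between -0.41 and -0.22, with adjusted p (exact permutation test) of 0.00233 to 0.0317.

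The effect of Dis3 loss differed between adult GV and p20 oocytes in RiboMinus libraries, with an interaction of -0.86 (edgeR, adjusted p = 0.00158), but the call was lost on counts summed per title tag (-0.87, adjusted p = 0.309). Against p20 Dis3 cKO, the adult libraries of tag AM1713 differed by -0.98 and -1.07 per gene count and those of AM1757 by -0.21 and -0.29.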

How the results depend on the processing

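The call for lower C86187 in Dis3 cKO at GV, GV3h and MII and in p20 dcKO held under every alternative fit run, and the adult RiboMinus call under all but 1. Of 275 alternative edgeR values of C86187 260 kept direction and call, as did 398 of 412 alternative ratio tests and 25 of 28 peak counts. Scaled to ERCC counts, edgeR gave -0.88 for control MII against GV, 0.39 and -0.40 for Dis3 cKO GV3h and MII against GV, 0.024 and 0.48 for the interactions at GV3h and MII, and -1.45 for adult against p20 controls, where the median of all genes was -1.69. Summing counts per title tag gave -0.88 in adults (adjusted p = 0.213), -0.60 between ages in Dis3 cKO (0.0844) and -0.87 for the interaction with age (0.309); a fit of the 2 control groups alone gave 0.23 between ages. Title numbers did not pair libraries: the lowest correlation of deviations was under 0.1 in every comparison. With the replicate block the values were -1.25 at GV, -0.87 in adult RiboMinus libraries and -0.80 in p20 dcKO, the MII interaction was 0.10 (0.069 with title numbers 1 to 8 only), Elobl at MII was -0.023, and no call of C86187 changed. Group medians gave 0.45 per ERCC count for control GV3h against GV (adjusted p = 0.0513, permutation test) and -0.19 per gene count in Dis3 cKO. Without the most abundant ERCC RNA, p20 Dis3 cKO was at -0.29 per ERCC count. With all ERCC RNAs, dcKO against Exosc10 cKO was -1.15 and -0.23 within the tags. In adult RiboMinus libraries ERCC scaling gave -0.33 for Gm1965 and -0.32 for Arhgap20os. Plain library sizes gave 0.065 for Spty2d1 in adults and 0.12 for Tsg101 in p20 dcKO. With 1 library left out, C86187 in p20 Dis3 cKO ran from -0.076 to 0.017 (3 of 16 changed sign), the per ERCC differences of Dis3 cKO GV3h and MII from GV ran from 0.35 to 0.53 and from -0.53 to -0.26, dcKO against Dis3 cKO from -0.65 to -0.42, Spty2d1 in adults from -0.084 to 0.069 and Tsg101 in dcKO from -0.094 to 0.0061. A window of 10000 bases gave 1 p20 control k27me3 library with a peak, and peaks above the median signal of their list left 0 adult Dis3 cKO k27me3 libraries and 1 adult control pols2s5 library.

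Counts of genes called moved by over 1.5 times in these cases. Under ERCC scaling they were 6843 for adult Dis3 cKO (main 4305), 364 for Exosc10 cKO (1183), 5015 for dcKO against Exosc10 cKO (7809), 14869 and 14200 between ages in controls (3294) and Dis3 cKO (6470), 583 for the interaction with age (1610), 118 and 15275 for control GV3h (471) and MII (10179) against GV, 6434 for Dis3 cKO GV3h (3009) and 5237 for the MII interaction (2287). Summed per tag they were 0 for adult Dis3 cKO, 286 for p20 Dis3 cKO (1171), 174 for Exosc10 cKO, 237 and 2684 between ages and 70 for the interaction. Fits of 2 groups alone gave 4336 at MII (7315) and 2083 for control GV3h, and DESeq2 gave 545 for the GV3h interaction (355). Causes were not tested. The differences within title tags per gene count, the left-out libraries for comparisons other than a knockout with its controls, the count of peaks inside Gm39012, and the alternatives for listed and named genes other than C86187, were added after seeing the data.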

Other observations

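Small RNA pathway genes and the Elob pair were looked at beside C86187 because the lncRNA is known as a source of small interfering RNAs; this list was not part of the listed tests and was chosen with values in view. Dicer1, which makes small interfering RNAs, averaged 662 ± 29.8 CPM (SD) in control and 747 ± 134 in Dis3 cKO GV oocytes (log2 fold change 0.09 ± 0.09, edgeR, adjusted p = 0.515), and was lower in Dis3 cKO MII eggs (-0.37 ± 0.08, edgeR, adjusted p = 0.000250). Ago2, which binds them, was lower in Dis3 cKO at GV (-0.81 ± 0.22, adjusted p = 0.00427) and at MII (-0.60 ± 0.22, adjusted p = 0.0245, edgeR), and higher in p20 dcKO (0.79 ± 0.20, adjusted p = 0.00133). Under ERCC scaling Dicer1 at MII (-0.014), Ago2 at MII (-0.20) and Ago2 in p20 dcKO (0.60) were not called by edgeR, with adjusted p of 0.960, 0.642 and 0.0820. Elob, an elongin subunit, averaged 0.295 ± 0.284 CPM in control and 4.09 ± 4.5 CPM in Dis3 cKO MII eggs, a log2 fold change of 3.61 ± 0.48 (edgeR, adjusted p = 4e-09), where 42.1% of genes were called. Elob was also higher at GV3h (1.05 ± 0.36, edgeR, adjusted p = 0.0174; 0.0510 under ERCC scaling) and lower in p20 Dis3 cKO (-0.81 ± 0.25, adjusted p = 0.0374). Its paralogue Elobl averaged 357 and 428 CPM in the same eggs (0.15 ± 0.21, adjusted p = 0.6), and its sign turned with title numbers as a block, while under ERCC scaling it was called higher (0.71, adjusted p = 0.0490); at GV3h it was lower (-0.59 ± 0.21, edgeR, adjusted p = 0.0181; 0.111 under ERCC scaling). In adult RiboMinus libraries 0 of the 4 were called by edgeR (Elob 0.55 ± 0.27, adjusted p = 0.147), where 28.1% of all genes were called. Under ERCC scaling Dicer1 (-0.65), Ago2 (-1.07) and Elobl (-0.96) were called lower, as were 40.1% of all genes (median -0.52).

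By Pearson r, the genes whose levels ran most opposite to C86187 were Spock1 in poly(A) libraries (r = -0.943, n = 71 libraries) and the lncRNA 4930500H12Rik in RiboMinus libraries (r = -0.923, n = 48). 4930500H12Rik was also among the first 5 in poly(A) libraries (-0.907). For deviations from the group means the values were -0.711 for Spock1 and -0.761 for 4930500H12Rik in RiboMinus libraries. By Spearman's rho other genes lay lower: AV356131 (-0.9506) against Spock1 (-0.9457), and Diablo (-0.8722) against 4930500H12Rik (-0.8465). Within RiboMinus groups the gene most like C86187 was Obox5 (r = 0.858), followed by Obox1 (0.847) and Oog1 (0.842). These are genes of oocyte-expressed families with near-identical copies, whose shared reads may have been divided or left uncounted. These correlations describe the libraries and were not tested.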
